A study of Rattus norvegicus with 7 samples.

Results

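Gremlin, encoded by Grem1, is a secreted protein that binds bone morphogenetic proteins (BMPs) and keeps them from their receptors, and it was described here with 9 genes of the BMP and TGF-beta pathways in cultured rat spinal cord cells that were stretched rhythmically. The genes were the antagonist Grem1, the ligands Bmp2, Bmp4, Inhba, Tgfb1, Tgfb2 and Tgfb3, and the BMP target genes Id1, Id2 and Id3. Every probe set whose array annotation gave exactly 1 of these 10 symbols was taken, which gave 14 probe sets of 10 genes among 31042 probe sets, of which those with 1 symbol covered 14217 symbols. All 14 had a mean signal of 100 or more. The genes were chosen with measured values of these same arrays known, so their values are given as a description and without a test.

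The cells were primary cultures of spinal cord from Sprague-Dawley rat embryos at embryonic day 15, stripped of meninges and dorsal root ganglia, dissociated with trypsin and put under cyclic tensile stress, with arrays taken at 0 h and then at 2, 6, 12, 24, 48 and 72 h. Each time had 1 Affymetrix expression array, hybridised with the pooled RNA of 5 animals, so the 7 arrays hold no replicates and the spread between cultures is unknown. The same 0 h array was the baseline of every later time, so all ratios share it, and no unstretched culture of a later time was analysed here, so that hours under stress and hours in culture cannot be told apart. The values were MAS5.0 signals on a linear scale, which compare 1 probe set between arrays but not different probe sets with each other.

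BMPs and TGF-betas are secreted dimers that bring together type I and type II serine/threonine kinase receptors, which phosphorylate Smad proteins that enter the nucleus and act on target genes. BMPs pattern the dorsal spinal cord and favour astroglial fates in neural precursors, and TGF-betas are known for their part in matrix production and glial scarring. The Id proteins are direct BMP targets in many cell types, lack a DNA-binding region and hold back basic helix-loop-helix (bHLH) transcription factors, among them those that drive neuronal differentiation.

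The promoters of Grem1 and Id1 are shown because these are the 2 genes that passed the size threshold described below at 72 h. Both are 300 bases from RefSeq on assembly GRCr8, with 250 bases before the annotated start and 50 after it, printed 5′ to 3′ on the strand of the gene. Grem1 lay at chr3:120978270-120978569 on the minus strand and Id1 at chr3:161671314-161671613 on the plus strand. Capitals mark the Smad-type motif GTCT, which reads AGAC where it lies on the opposite strand, and the GC-rich motif GGCGCC.
Grem1: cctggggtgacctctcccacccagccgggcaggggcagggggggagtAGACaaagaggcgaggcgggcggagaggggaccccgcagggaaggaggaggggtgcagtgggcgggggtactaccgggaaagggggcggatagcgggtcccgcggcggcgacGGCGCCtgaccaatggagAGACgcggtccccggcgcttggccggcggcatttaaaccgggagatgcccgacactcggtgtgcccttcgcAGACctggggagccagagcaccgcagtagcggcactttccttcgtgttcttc
Id1: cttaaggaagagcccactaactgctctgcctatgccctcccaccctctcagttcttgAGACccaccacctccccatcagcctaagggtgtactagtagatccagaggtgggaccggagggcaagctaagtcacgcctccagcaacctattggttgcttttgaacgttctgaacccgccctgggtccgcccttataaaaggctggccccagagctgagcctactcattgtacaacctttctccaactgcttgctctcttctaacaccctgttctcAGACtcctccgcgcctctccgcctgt
The Grem1 window held GTCT 3 times, with first bases at -203, -73 and -2 from the start, and GGCGCC once at -91. Id1 held GTCT at -193 and 24 and the bHLH motif CANNTG at -9, which is not capitalised, and no GGCGCC. On either strand, GTCT was found in 88.8%, CANNTG in 72.1% and GGCGCC in 11.0% of 33469 rat promoters of this length. Of the 9 genes with a promoter entry, all but Bmp2, GGCGCC was found in Grem1 alone, which is close to its share of all promoters. CANNTG was also found in Bmp4, Id2, Tgfb2, Tgfb3 and Inhba, and Id3 held none of the 3 motifs. None of the 3 motifs thus sets either promoter apart. A match is a run of letters and not a site of binding.

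Grem1 showed the largest ratio to 0 h among the 14 probe sets. Its signal was 662 at 0 h, 737 at 2 h, 962 at 6 h, 743 at 12 h, 1446 at 24 h, 1477 at 48 h and 5087 at 72 h. The first 4 arrays were the lowest, those of 24 h and 48 h were close to each other, and the 72 h array stood apart from all others. The ratio to 0 h was 2.19 at 24 h, 2.23 at 48 h and 7.69 at 72 h, and the 72 h signal was 3.44 times that at 48 h. A straight line through log2(signal + 32) over the hours gave a change of 2.52 ± 0.30 (SE, 7 arrays) over 72 h. By its log2 difference at 72 h Grem1 stood at place 22 of 17709 probe sets. The line through the 6 arrays up to 48 h, scaled to 72 h, still gave 1.69 ± 0.38, and leaving out any other array gave 2.45 to 2.85. The study itself lists Grem1 among genes selected for high ratios on these arrays, so its size here is not independent of the selection.

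**Figure D1:**
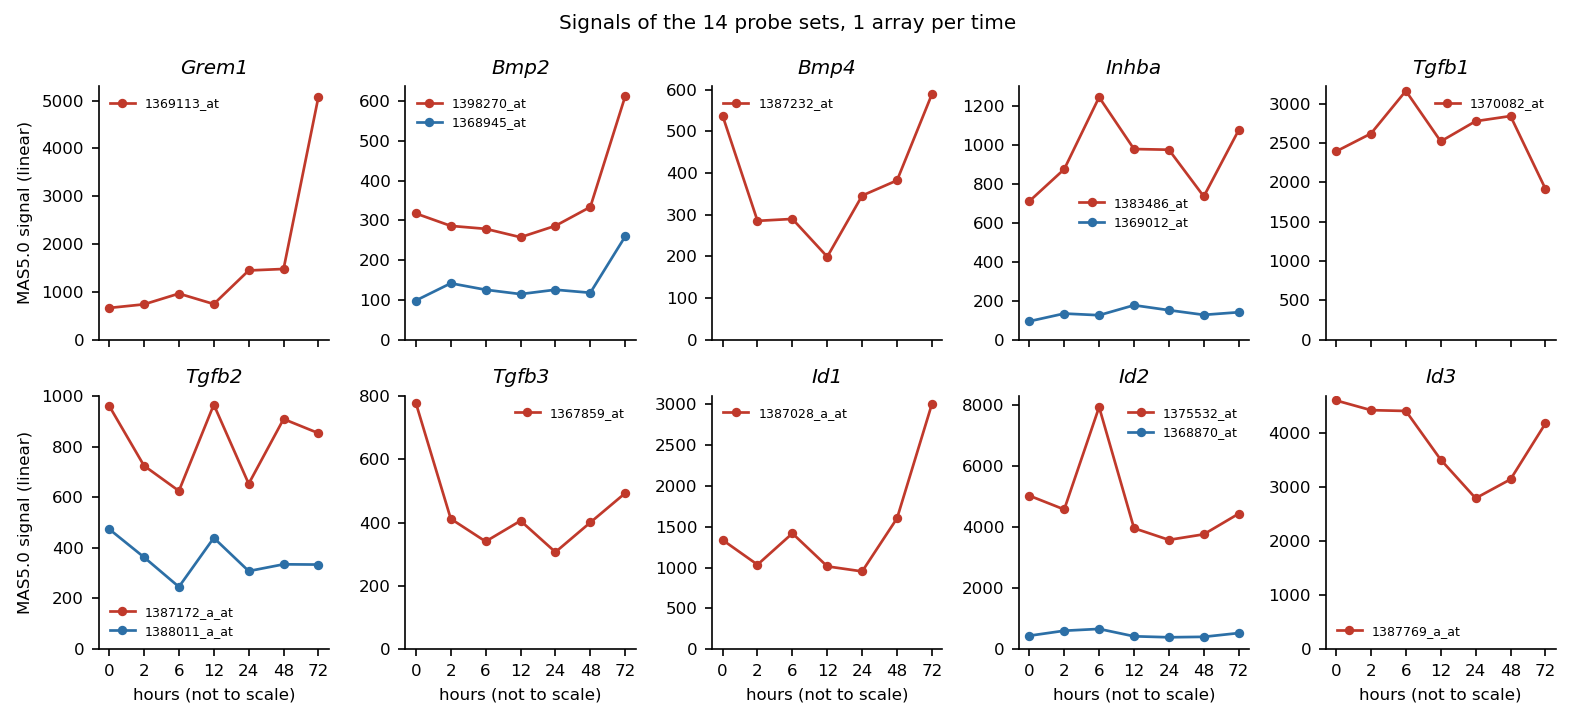
MAS5.0 signal (linear, from 0) against hours of cyclic tensile stress, with times evenly spaced and 1 array per time, for each of the 14 probe sets of the 10 genes. Grem1, both Bmp2 probe sets, Bmp4 and Id1 are highest on the 72 h array, while Bmp4 and Tgfb3 drop between 0 h and 2 h.

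The BMP ligand genes differed from each other. Bmp2, which encodes a ligand bound by Gremlin, gave 317, 286, 279, 257, 286, 333 and 612 over the 7 times with probe set 1398270_at. Its dimmer probe set 1368945_at gave 98.2, 142, 125, 114, 125, 118 and 259 at the same times. Both were highest at 72 h, with ratios to 0 h of 1.93 and 2.64 there and none above 1.44 at earlier times, although neither passed the size threshold, the first by its ratio and the second by its difference of 161. The 72 h signal of 1398270_at was 1.84 times that at 48 h, and its fitted change of 0.87 ± 0.23 was 0.23 ± 0.29 without the 72 h array.

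Bmp4, a ligand of the same subgroup that is active in the dorsal neural tube, followed another course. Its signal was 538 at 0 h, 285 at 2 h, 289.7 at 6 h, 199 at 12 h, 346 at 24 h, 382 at 48 h and 589 at 72 h. It was low on the 2 to 48 h arrays and on the 72 h array was close to 0 h, with ratios of 0.370 at 12 h and 1.10 at 72 h. Inhba encodes the subunit of activin A, a ligand that signals through the same Smads as the TGF-betas. Probe set 1383486_at gave 711, 876, 1246, 979.9, 976, 736 and 1077 over the 7 times, with its highest value at 6 h (ratio 1.75) and a second high value at 72 h (1.51). Probe set 1369012_at gave 94.0, 134, 125, 177, 151, 127 and 140.4, highest at 12 h (1.88). Both Inhba probe sets were lowest at 0 h, and they disagreed on the time of the peak.

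The 3 TGF-beta ligand genes were not higher at 72 h than at 0 h. Tgfb1, the isoform best known from wounds and fibrosis, gave 2395, 2623, 3166, 2523, 2780.3, 2846 and 1919 over the 7 times, highest at 6 h (ratio 1.32) and lowest at 72 h (0.801). Tgfb3, an isoform with roles in development, gave 778, 412, 340.1, 406, 307, 400.2 and 493. Its 0 h array was above every later one, with ratios of 0.394 at 24 h and 0.634 at 72 h. Tgfb2, expressed by neurons and glia, gave 961, 724, 625, 966, 653, 909 and 853 with 1387172_a_at and 474, 363, 246, 439, 308, 335 and 334 with 1388011_a_at. Both Tgfb2 probe sets were lowest at 6 h and high at 0 h and 12 h, with no steady course, and ratios at 72 h were 0.887 and 0.704.

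Among the Id genes, Id1 alone was above 0 h by a ratio of at least 2 at 72 h. Its signal was 1338, 1035, 1419, 1014, 952, 1604 and 3006 over the 7 times, so the 72 h value was 2.25 times that at 0 h, 1.87 times that at 48 h and 3.16 times that at 24 h. The fitted change was 1.19 ± 0.30 on the log2 scale (SE, 7 arrays), and 0.42 ± 0.41 without the 72 h array. Id3, which is often induced together with Id1 by BMPs, gave 4611, 4431, 4416, 3512, 2797, 3148 and 4183, lowest at 24 h (ratio 0.607) and 0.907 times the 0 h signal at 72 h. The brighter Id2 probe set 1375532_at gave 5020.0, 4569, 7919, 3955, 3573, 3755 and 4429, with its only value above 0 h at 6 h (ratio 1.58). The dimmer one, 1368870_at, gave 437, 600.5, 659.6, 418, 386, 401 and 524, with ratios of 1.51 at 6 h and 1.20 at 72 h, against 0.882 at 72 h for the brighter one. Id1, Id2 and Id3 shared a low point at 24 h and then differed.

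**Figure D2:**
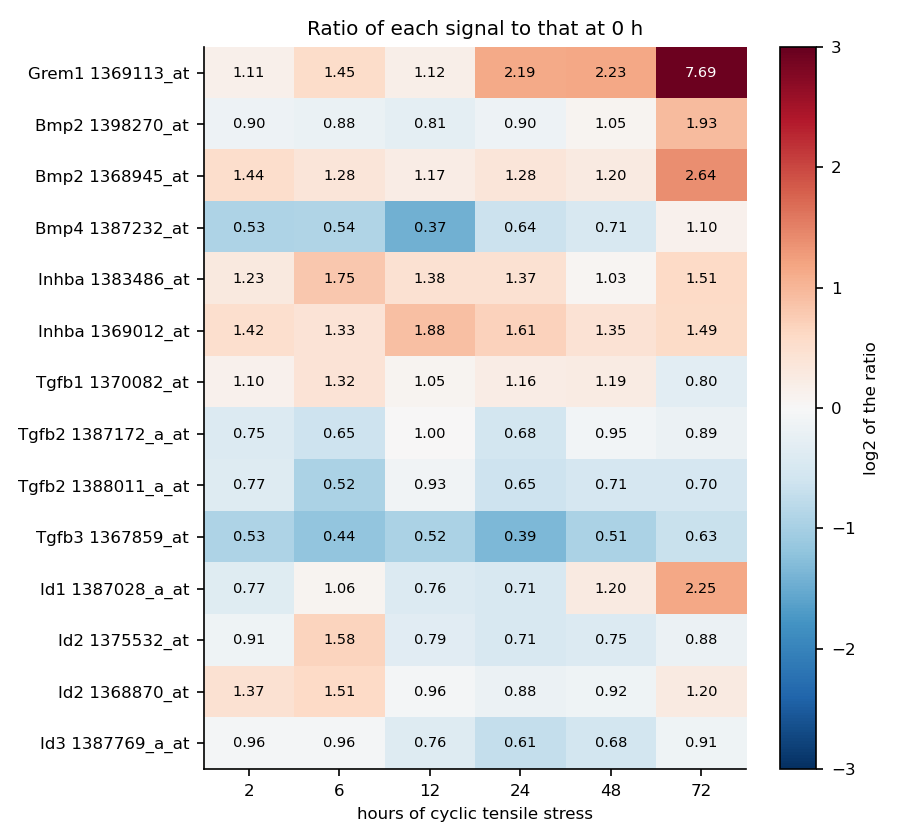
Ratio of the signal of each of the 14 probe sets (rows) at 2 to 72 h (columns) to that at 0 h, printed in each cell and coloured by its log2. The 72 h cell of Grem1 (7.69) is the darkest, and the Bmp4 and Tgfb3 rows are below 1 at every time but 72 h for Bmp4.

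The methods of the study call a difference by size, with a threshold of 2 for the ratio and 200 for the difference in signal. For lower signals the inverse ratio, 0.5 or less, was used here. By this threshold none of the 14 probe sets was higher or lower at 2 h, where 0.0387% of all probe sets were higher and 0.47% lower. At 6 h, 0 were higher (0.351% of all) and 1, Tgfb3, was lower (1.22%). At 12 h, 0 were higher (0.419%) and 1, Bmp4, was lower (1.71%). At 24 h, Grem1 was higher (0.496% of all) and Tgfb3 lower (1.31%), and at 48 h Grem1 was higher (1.98%) and 0 were lower (3.05%). At 72 h, Grem1 and Id1 were higher (2.6% of all) and 0 were lower (3.54%). These shares are over all 31042 probe sets, with dim ones included that have little room for a difference of 200. All 14 probe sets here had a mean signal of 100 or more, and shares among probe sets as bright were not computed. With each gene taken by its brightest probe set, the median log2 difference from 0 h over the 10 genes was -0.48 at 24 h and -0.01 at 72 h, against -0.00 at both times over the 17709 probe sets whose mean signal reached 100. At 72 h, 5 of the 10 genes were above 0 h and 5 below, from -0.63 (Tgfb3) to 2.88 (Grem1), with no direction in common.

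The course of Grem1 over the arrays was closest to those of Gpr176, Itm2c, Slc20a1, Uqcc1 and Appl2. Their Pearson correlations with Grem1 in log2(signal + 32) were 0.98 to 0.99 over the 7 arrays, the highest among 14009 probe sets of 1 symbol. Over the 6 arrays without 72 h they were 0.92 to 0.94, at places 48 to 104, so other probe sets were closer to Grem1 there. All points of these correlations come from the same 7 libraries. Gpr176, an orphan G protein-coupled receptor, gave 863 at 72 h, against 413 at 0 h, and Appl2, an endosomal adaptor, gave 1805 at 72 h, against 883 at 0 h. The membrane protein gene Itm2c, the phosphate transporter gene Slc20a1 and the respiratory chain assembly gene Uqcc1 were also highest at 72 h, at smaller ratios of 1.24, 1.36 and 1.33. The correlation of the brighter Bmp2 probe set with Grem1 was 0.90 (place 251) and that of Id1 0.82 (place 936), and without the 72 h array they were 0.34 and 0.19, so the likeness of these genes to Grem1 lay in that array.

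The wider pathway was read from 8 lists of other genes, which hold 140 genes, of which 113 had a probe set of their own and 89 a mean signal of 100 or more. Their slopes over the hours were taken from a limma fit of all 17709 probe sets at this signal, and a gene rose or fell where the Benjamini-Hochberg adjusted p was under 0.05. Of the 89 genes, 25 rose (28.1%), 11 fell (12.4%) and 53 did not pass, where 15% of all probe sets tested rose and 14.1% fell. The median fitted change was -0.00 on the log2 scale for the 89 genes and for all tested. Without the 72 h array 10 of the 89 rose and 3 fell, where 7.43% of all rose and 7.21% fell. On a scale of log2(hours + 2) 15 of the 89 rose and 12 fell, where 12.6% of all rose and 13.1% fell. Furin, Itgav and Inhbb are also among genes that the study listed by their ratios on these arrays.

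**Figure D3:**
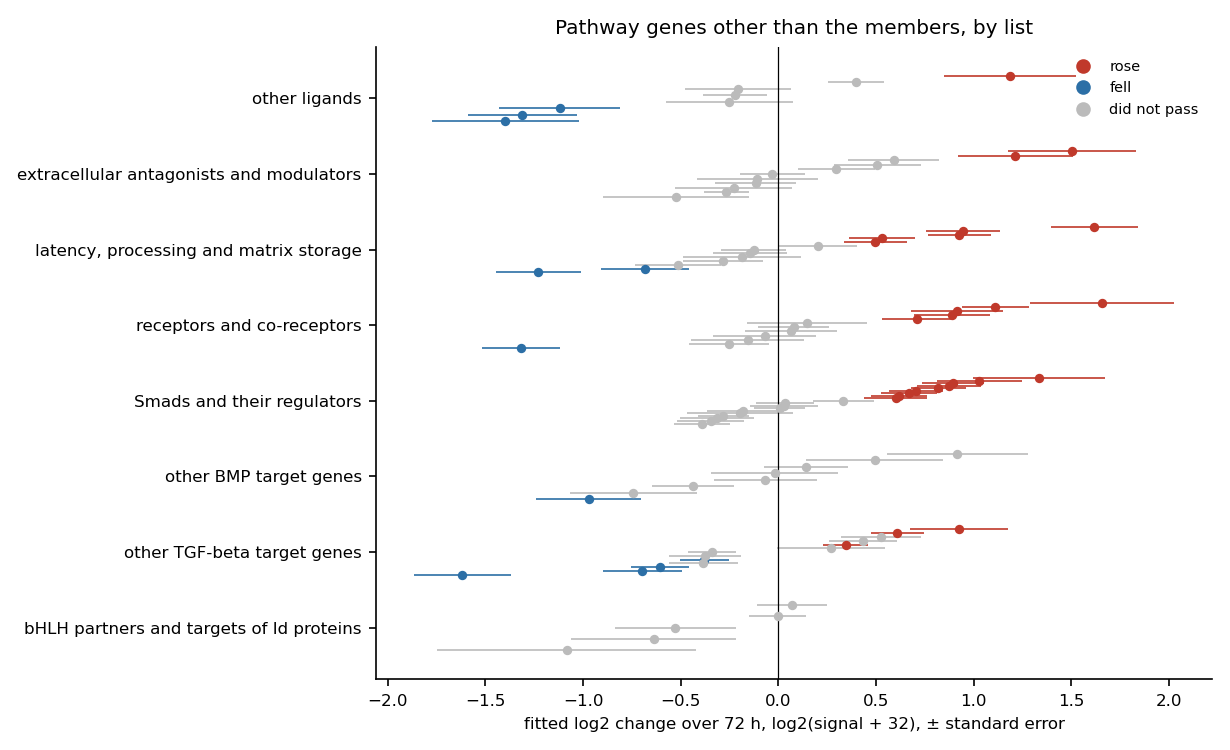
Fitted log2 change over 72 h in log2(signal + 32) with its standard error (x axis) for the 89 genes tested in the 8 lists (rows of points), coloured by the limma call. The list of Smads and their regulators has 9 genes that rose and 0 that fell, and the list of other ligands has 1 that rose and 3 that fell. Of all probe sets tested, 15% rose and 14.1% fell.

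Of the antagonists other than Grem1, 11 of 18 could be tested, and 2 rose, 0 fell and 9 did not pass (median fitted change -0.03). Nog, which encodes the BMP antagonist Noggin, gave 313, 282, 166, 265, 256, 418 and 628 over the 7 times and rose by a fitted log2 change of 1.21 ± 0.29 (SE, adjusted p = 0.0129). Its 48 h and 72 h arrays were above 0 h and the earlier ones below it. Fst, which encodes the activin-binding protein follistatin, gave 450.4, 418, 451, 648, 551, 1532 and 1006 and rose by 1.5 ± 0.33 (adjusted p = 0.0079) with both of its probe sets. Chordin (Chrd), another BMP antagonist, did not pass, at 105 at 72 h, against 183 at 0 h. Without the 72 h array, and scaled to 72 h, the change of Nog was 0.88 (adjusted p = 0.25) and that of Fst 2.50 (adjusted p = 0.00619).

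Among other ligands, 8 of 22 could be tested, and 1 rose, 3 fell and 4 did not pass (median -0.24). Inhbb, the beta subunit of activin B, gave 159, 154, 161, 182, 209, 155 and 521 and rose by 1.19 ± 0.34 (adjusted p = 0.0255), a change that lay in the 72 h array. Bmp7, a BMP that Gremlin also binds, gave 345, 292, 207, 154, 166, 128 and 93.1, lower at each time than at the one before except at 24 h, and fell by 1.31 ± 0.28 on the log2 scale (adjusted p = 0.00735). Gdf10, a distant member of the BMP family, fell by 1.40 ± 0.38 (adjusted p = 0.0204), at 111 at 72 h, against 656 at 0 h. Gdf15, a stress-induced member of the family, was highest at 6 h (1681) and fell by 1.12 ± 0.31 (adjusted p = 0.0219), at 591 at 72 h, against 1015 at 0 h. None of these calls passed without the 72 h array, but the sizes differed. Inhbb changed by 0.07 there (adjusted p = 0.913) and Gdf10 by -0.93 (0.334), while Bmp7 changed by -1.56 (0.053) and Gdf15 by -1.57 (0.0633), more than with all arrays. Without the 2 h array Inhbb changed by 1.20 (0.0578) and Gdf15 by -1.05 (0.0635), and without the 48 h array Gdf15 changed by -1.05 (0.0676).

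Latent TGF-beta is stored in the matrix by binding proteins and released by proteases and integrins, and of 13 such genes tested 5 rose, 2 fell and 6 did not pass (median -0.13). Ltbp2, a relative of the latent TGF-beta binding proteins, gave 299, 232, 284, 333, 370.0, 442 and 997 and rose by 1.62 ± 0.22 (adjusted p = 0.00112). Furin, the convertase that cleaves the TGF-beta precursor, rose by 0.93 ± 0.16 (adjusted p = 0.00278), at 2073 at 72 h, against 1023 at 0 h. Itgav, the alpha subunit of integrins that release TGF-beta, rose by 0.94 ± 0.19 (adjusted p = 0.00554) with all 3 of its probe sets. The brightest gave 4317 at 72 h, against 2462 at 0 h (ratio 1.75), and the study lists Itgav with a larger ratio at 72 h. Fbn2, a microfibril fibrillin, fell by 1.23 ± 0.22 (adjusted p = 0.003), at 199 at 72 h, against 658 at 0 h. Ltbp4, a latent TGF-beta binding protein, fell by 0.68 ± 0.23 (adjusted p = 0.0442), at 300.1 at 72 h, against 624 at 0 h. Without the 72 h array the changes were 1.04 for Ltbp2 (adjusted p = 0.0504), 1.45 for Itgav (0.00862) and -1.10 for Fbn2 (0.0718). There 2 of the 13 rose and 0 fell, where 7.43% of all probe sets tested rose and 7.21% fell. Without the 2 h, 6 h or 48 h array 3 rose (10.3%, 13.4% and 9.29% of all). The Ltbp4 call held in the absence of the 6 h array and of no other (adjusted p 0.0603 to 0.213 without each of the rest).

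Of 12 receptors and co-receptors tested, 5 rose, 1 fell and 6 did not pass (median 0.11). Eng (endoglin), a co-receptor of the TGF-beta family best known from endothelium, gave 774, 1102, 1414, 1746, 1983, 3805 and 2625 and rose by 1.66 ± 0.37 (adjusted p = 0.00873). It was above 0 h on all 6 later arrays and highest at 48 h. Rgmb, a BMP co-receptor, rose by 1.11 ± 0.17 (adjusted p = 0.00178) with both probe sets, at 2235 at 72 h, against 1247 at 0 h. Bambi, a pseudoreceptor that is itself a BMP target and dampens signalling, gave 478, 581, 447, 679.7, 457, 819 and 973 and rose by 0.91 ± 0.24 (adjusted p = 0.0169). The remaining genes that rose, named after their values were seen, were the BMP type I receptor Bmpr1a (0.71 ± 0.18) and the activin type II receptor Acvr2a (0.89 ± 0.19). Tgfbr1, the TGF-beta type I receptor, gave 5167, 7749, 6856, 5769.8, 5645, 3421 and 2708 and fell by 1.32 ± 0.20 (adjusted p = 0.00156) with both probe sets, highest at 2 h. Bambi did not pass without the 48 h array (change 0.86, adjusted p = 0.0563) or the 72 h array (0.84, 0.189), although its change was about as large. Without the 72 h array Eng changed by 2.91 (0.0037), and 2 of the 12 rose, where 7.43% of all did.

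Of 19 Smads and regulators of Smads tested, 9 rose, 0 fell and 10 did not pass (median 0.33), where 15% of all probe sets tested rose and 14.1% fell. On a scale of log2(hours + 2) 5 of the 19 rose (12.6% of all), and on the rank of the time 6 rose (13.3%). The inhibitory Smad Smad7, a target and feedback inhibitor of both pathways, gave 179, 165, 186, 191, 165, 252 and 411 and rose by 1.03 ± 0.22 (adjusted p = 0.0072). Smad6, the inhibitory Smad of the BMP branch, did not pass, with a fitted change of -0.20 ± 0.27 (adjusted p = 0.624) and signals of 175 at 72 h and 183 at 0 h. Smad9, a receptor Smad of the BMP branch, was near the minimum of 100 and rose by 1.34 ± 0.34 (adjusted p = 0.0154), at 208 at 72 h, against 104 at 0 h. Skil, which encodes the Smad co-repressor SnoN, rose by 0.89 ± 0.16 (adjusted p = 0.00301), at 5123 at 72 h, against 2756 at 0 h. Without the 72 h array 3 of the 19 rose, where 7.43% of all did. Smad7 changed by 0.60 there (adjusted p = 0.251), and Smad9 by 1.22 (0.186). Without the 48 h array Smad9 changed by 1.24 (0.0543), so its size was close to that with all arrays.

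Of 8 other BMP target genes tested 0 rose, 1 fell and 7 did not pass (median -0.04). On a scale of log2(hours + 2) or of the rank of the time 0 rose and 3 fell, where 13.1% and 13.6% of all probe sets tested fell. Their median log2 difference from 0 h was -0.46 at 6 h, -0.47 at 24 h and -0.30 at 72 h. Id4, the remaining Id gene, passed with none of its 4 probe sets, and the brightest gave 841 at 72 h, against 1152 at 0 h (fitted change -0.07 ± 0.26, adjusted p = 0.871). Tcf7, a transcription factor of the Wnt pathway, fell by 0.97 ± 0.27 (adjusted p = 0.0222), with a change of -0.93 (0.0643) without the 48 h array and of -1.32 (0.0699) without the 72 h array. Of 5 bHLH partners and targets of Id proteins tested, 0 rose, 0 fell and 5 did not pass (median -0.53), and 5 more, with Neurog1 and Neurog2 among them, were under the minimum signal.

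Of 13 other TGF-beta targets tested, 3 rose, 4 fell and 6 did not pass (median -0.34). Ccn2, annotated as Ctgf and encoding a matricellular protein, gave 6475, 4061, 5491, 4721, 6714, 5976 and 10793 and rose by 0.92 ± 0.25 (adjusted p = 0.0214). The basement membrane collagen gene Col4a1 rose by 0.61 ± 0.13 (adjusted p = 0.00837) with both probe sets, and the fibronectin gene Fn1 by 0.34 ± 0.12 (adjusted p = 0.0496). Tgfbi, named for its induction by TGF-beta and encoding a matrix protein, gave 3750.4, 2759, 2318, 2733, 1460.1, 1553 and 958 and fell by 1.62 ± 0.25 (adjusted p = 0.00164). The smooth muscle actin gene Acta2 fell by 0.70 ± 0.20 (adjusted p = 0.0278), and Timp1, an inhibitor of matrix proteases, by 0.61 ± 0.15 (adjusted p = 0.013). Without the 72 h array Ccn2 changed by 0.41 (adjusted p = 0.497), Acta2 by -0.63 (0.241) and Timp1 by -0.51 (0.194). Without the 2 h array Ccn2 changed by 0.79 (0.061) and Acta2 by -0.65 (0.0758). There 1 gene of the list rose and 2 fell, where 10.3% of all probe sets tested rose and 9.49% fell. The Fn1 call held without the 24 h array alone (adjusted p 0.0634 to 0.221 without each of the rest) and was lost with the same median on every array (0.136).

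Markers of the cell types in the culture also differed between arrays. Neuron markers were present at 0 h, with 9 of 10 at a mean signal of 100 or more and Syt1 under it, and their median log2 difference from 0 h was -0.69 at 2 h, -1.66 at 12 h and -1.51 at 72 h, while 0 rose and 3 fell by limma. By this test 15% of all probe sets tested rose and 14.1% fell. On a scale of log2(hours + 2) or of the rank of the time all 9 neuron markers fell, where 13.1% and 13.6% of all did. With 1 array left out between 1 (without 48 h, 9.06% of all) and 7 (without 12 h, 13.6%) of these markers fell. Their signal summed over all 10, Syt1 included, was 5067 at 72 h, against 18040.4 at 0 h. In such a sum the brightest probe sets weigh most. Markers of skeletal muscle, which the label of the tissue does not name, were measured as well. Summed in the same way over the 7 with a probe set, their signal was 4417 at 2 h, against 10886 at 0 h. Over 6 of 8 genes the median was -1.29 at 2 h and -1.93 at 72 h, and 0 rose and 1 fell by limma. Of these muscle markers 3 fell without the 48 h array, 2 without the 12 h array and 0 without the 72 h array (7.21% of all). Bmp4 and Tgfb3 were lower at 2 h and 12 h, as neuron and muscle markers were, at log2 differences of -0.85 and -0.87 at 2 h. Unlike neuron and muscle markers, Bmp4 was not lower at 72 h. The median of 5 oligodendrocyte lineage markers was also below 0 h at 2 h (-0.41), 12 h (-0.76) and 48 h (-0.24), and was 0.09 at 72 h. The part of the markers in these courses was not tested, and in a mixed culture fewer cells of a type and less RNA per cell cannot be told apart.

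Fibroblast and meningeal markers were measured in 10 of 10 genes, although meninges were stripped. Of these, 0 rose and 4 fell, where 15% of all probe sets tested rose and 14.1% fell. Without the 72 h array 0 rose and 2 fell (7.43% and 7.21% of all), and without the 48 h array 1 and 2 (9.29% and 9.06%). Their summed signal was 73646 at 72 h, against 80650 at 0 h. Their median log2 difference at 72 h was -0.34, when that of Grem1 was 2.88. Within this list Dcn gave 11059 at 72 h, against 5967 at 0 h, and did not pass the test. Of 7 microglia and macrophage markers tested 0 rose and 5 fell (3 without the 72 h array), with a median of -0.77 at 72 h, and astrocyte markers had 0 that rose and 0 that fell of 7, with a median of -0.27. Of 5 oligodendrocyte lineage markers tested 0 rose and 1 fell (0 without the 48 h array), with a median of 0.09 at 72 h. Of 5 cartilage markers with a probe set 4 were under the minimum, and the remaining one, Comp, had a log2 difference of 0.49 at 72 h and did not pass. All 8 cell cycle genes fell, with a median of -2.56 at 72 h. Of 5 endothelial markers with a probe set 4 were under the minimum, Pecam1, Kdr, Tek and Cldn5, and the remaining one, Esam, gave 914 at 72 h, against 1159 at 0 h, and did not pass. No signal of any probe set was 0, so that no marker was listed at 0.

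**Figure D4:**
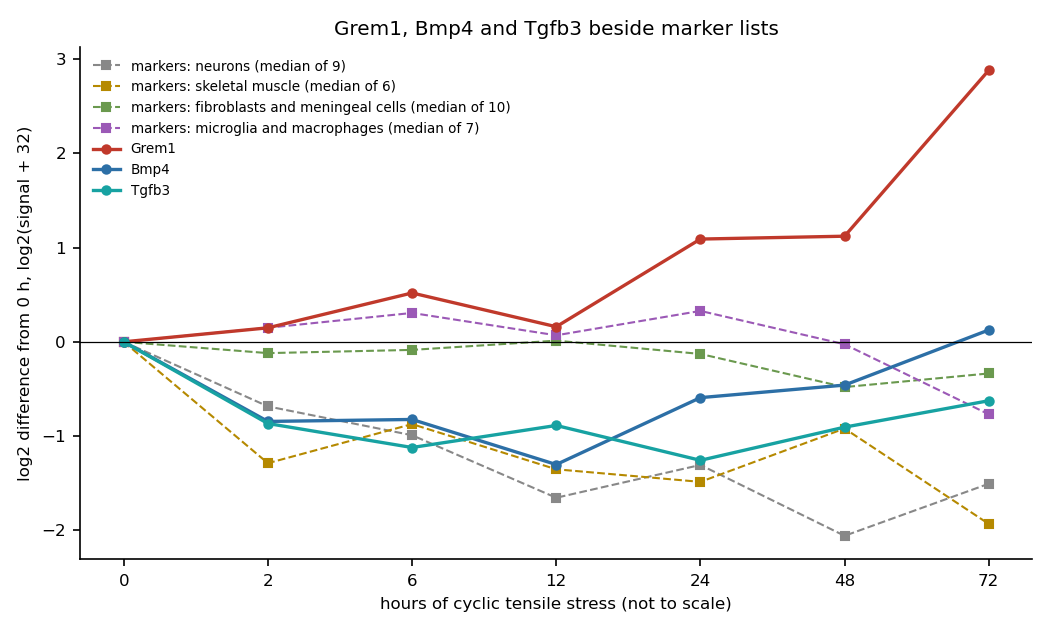
Log2 difference from the 0 h array in log2(signal + 32) against hours of cyclic tensile stress (evenly spaced) for Grem1, Bmp4 and Tgfb3 (solid lines) and for the medians of 4 marker lists (dashed lines). Grem1 reaches 2.88 at 72 h while none of the 4 marker medians drawn is above 0 h there, and the drop of Bmp4 and Tgfb3 at 2 h lies beside that of neuron and muscle markers.

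The ratio of 3′ to 5′ control signals of actin, a measure of RNA integrity, was 1.82, 1.53, 1.83, 1.95, 2.20, 2.54 and 2.62 over the 7 times. That of Gapdh was 1.16 at 72 h, against 1.09 at 0 h. The actin ratio thus went up with hours from 2 h on. It was highest on the 72 h array, on which Grem1, Bmp2, Bmp4 and Id1 were highest, and the 48 h array was close to it. The part of RNA quality in their values and in all fitted changes over the hours was not tested. Median signals were 145 to 162 on the 7 arrays, and 42.5% to 44.3% of probe sets were below 100 on each.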

How the data were processed

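Total RNA was measured on 7 arrays, 1 for each time, with RNA of 5 animals pooled by the authors. The deposited values are signal intensities per probe set on a linear scale, calculated by the authors in GCOS with MAS5.0 and scaled to a common mean (trimmed mean 500.144 to 500.162 with 2% left out at each end). Background subtraction leaves low signals unreliable, and the number of arrays limits the precision. The authors also left out spots by a rule that is not named, and this was not repeated. Of 31099 probe sets 57 controls were left out. Platform annotation of 2016 gave 20826 probe sets 1 symbol, 436 several and 9780 none, and all 14 symbols of the described probe sets were current in the GRCr8 gene table.

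Ratios to 0 h were computed with Python 3.11.15, numpy 2.4.6 and pandas 2.3.3, and figures with matplotlib 3.10.9. The change with hours was tested, two-sided, with limma 3.58.1 in R 4.3.3 on log2(signal + 32), using lmFit and then eBayes with its trend option. The fit covered the 17709 probe sets whose mean signal reached 100 and left 5 residual degrees of freedom, and p-values were adjusted over all of them by Benjamini-Hochberg (threshold 0.05). The pseudocount makes changes of low signals smaller. The spread is that around the line, not that between cultures. The fit was checked on simulated data, where 95 of 100 log2 changes of 2 and 51 of 100 log2 changes of 1 were called. Of 17509 probe sets with no change, 6 were called there. A gene that did not pass may therefore still have changed by a log2 of about 1. Few probe sets were given a change in the simulation, so the share found in the measured data may differ. The simulated noise was independent between probe sets and the changes were linear in hours. False calls from a shift that many probe sets of 1 array share were thus not covered. A gene of several probe sets was read from the brightest. Named were all 14 probe sets, in each list up to 3 genes with the largest fitted change in each direction among those past the test, genes given in any case (Nog, Chrd, Fst, Bambi, Smad6, Smad7, Id4, Inhbb and others not reported here) and the 5 genes closest to Grem1 by correlation. The genes described and all lists were chosen with earlier results of these data known. Alternatives were other pseudocounts, filters, normalizations, time scales, thresholds and baselines, and leaving out each array.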

Additional observations from a re-analysis of the deposited data

How the results depend on the processing

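The number of pathway genes that rose with hours was 25 of 89 by the main test, where 15% of all probe sets tested rose. It was 15 on a scale of log2(hours + 2) (14 of them among the 25), where 12.6% of all rose. On the rank of the time it was 16 (15 among the 25), where 13.3% of all rose. With 1 array left out it was 10 without the 72 h array (7.43% of all) to 26 without the 0 h array (15.6%). The number that fell was 11 by the main test (14.1% of all) and 12 on either of these time scales (13.1% and 13.6%). It was 3 without the 72 h array (7.21%) to 12 without the 6 h array (12.8%). Of the original calls, 9 of the 25 and 2 of the 11 remained without the 72 h array. Of 25 named genes called, 9 were called under each of the 9 alternative settings of normalization and of arrays left out: Col4a1, Eng, Fst, Furin, Itgav, Rgmb, Skil, Tgfbi and Tgfbr1. The other time scales, pseudocounts and filters were not among these settings. The number of probe sets of the 10 genes higher at 72 h, 2 by the main threshold, was 5 at a ratio of 1.5 with a difference of 100, 1 at a ratio of 3 with a difference of 200, and 1 with 48 h in place of 72 h. It was 3, with 1 Bmp2 probe set added, with no minimum difference, the same median on every array, quantile normalization or the mean of 0 and 2 h as the baseline. With a ratio of 1.5 and a difference of 100, 1 was lower at 72 h, against 0. The log2 difference at 72 h changed sign for Id2 over the mean of its probe sets (0.032, against -0.18 by the brighter) and for Tgfb2 against the mean of 0 and 2 h (0.017, against -0.17 against 0 h), and 62 of 64 such values kept their sign within the residual spread. The cause was not tested. No paired analysis was possible because each time has 1 array. Low signals limit what could be seen of dim genes, and 24 of the 113 genes with a probe set were under the minimum.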
